A study of Mus musculus with 4 samples.

Results

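Fatty acid oxidation genes were followed in RNA that was precipitated with the nuclear protein SAFB from mouse hepatocyte nuclei. The set holds 32 genes, chosen by name from the mitochondrial and peroxisomal β-oxidation pathways, the activation and import of fatty acids, and ketone body metabolism. They are 32 of the 52189 genes in the deposited table, and all 32 were among the 16647 genes with enough signal to be tested. SAFB, scaffold attachment factor B, binds both DNA and RNA and belongs to the nuclear matrix. RNA immunoprecipitation and sequencing (RIP-seq) recovers the RNA that an antibody brings down with its protein, and control IgG measures what comes down without a specific antibody.

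All libraries came from AML12, 1 established mouse hepatocyte line derived from a mouse with a TGF-α transgene, and the labels name no genetic change and no treatment that differs between the groups. The cells of both groups were grown with 10% serum, an ITS supplement and 0.1 µM dexamethasone, a glucocorticoid. After crosslinking with ultraviolet light, nuclei were isolated, lysed and sonicated, and the lysate was shared between the SAFB antibody and IgG. The RNA was treated with DNase and depleted of ribosomal RNA, and the libraries kept strand. There were 2 IgG libraries and 2 SAFB libraries, called IgG RIP 1 and 2 and SAFB RIP 1 and 2 here. The input lysate was not analysed here, so a value is a share of the precipitated RNA, and how much of an RNA was in the nucleus cannot be told apart from how well it was retained. The labels do not say that libraries 1 and 2 of a group came from separate cultures, so the p-values measure only the spread between these libraries.

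Values were in TPM, a transcript's share of its library after correction for transcript length. Such shares carry no information on sequencing depth, so none can be stated and counting error cannot be bounded. Across all genes tested, log2(TPM + 1) correlated at r = 0.923 between the IgG libraries, at 0.978 between the SAFB libraries and at 0.830 to 0.862 between the groups. The median gene was 0.46 higher in the SAFB libraries on the log2 scale. Each difference was therefore also computed after the libraries had been brought to a common median (median centring). Both values are given for every member, and values of other named genes are as deposited unless stated. That median includes genes absent from IgG. Of the genes tested, 1793 and 1119 were at 0 in IgG RIP 1 and 2, and 34 and 78 in SAFB RIP 1 and 2. Among genes with at least 1 TPM in all 4 libraries the median was 0.30, so the size of the shift depends on the filter. Of 16 hepatocyte markers, 14 were tested, with 2 higher and 2 lower (1 and 6 after centring), and Apoa2 and Asgr1 were listed at 0 in every library. The most abundant were Trf, called lower at −0.59, and Ttr, Krt8 and Krt18, none of them called as deposited. The hepatocyte list summed to 7760.7 and 7842.5 TPM in the IgG libraries and to 6873.2 and 7151.1 TPM in the SAFB libraries. The biliary and progenitor markers Spp1, Krt7 and Krt19 were also abundant, with a list sum of 2703 and 2618 TPM in the IgG libraries and 3070 and 3094 TPM in the SAFB libraries. Of its 5 genes tested 1 was higher and 2 were lower, among them Krt19 at −0.62, while Spp1, the most abundant, was 0.49 higher without passing. No stellate cell or endothelial marker passed the filter, and Cd68 and Csf1r were the only macrophage markers of 6 that did. The part of these markers in the results was not tested. Both groups were precipitates of lysate from the same line, so a marker value is a share of precipitated RNA and not a count of cells.

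Fatty acids are first joined to coenzyme A by acyl-CoA synthetases, and long chains then enter mitochondria through the carnitine shuttle. Inside, each turn of β-oxidation runs through an acyl-CoA dehydrogenase, a hydratase, a hydroxyacyl-CoA dehydrogenase and a thiolase, and the electrons pass through electron transfer flavoprotein to the respiratory chain. Peroxisomes shorten very long and branched chains with a separate set of enzymes, and the liver turns much of the acetyl-CoA that results into ketone bodies.

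The 32 genes did not move as a block. In the SAFB libraries 11 were higher, 5 were lower and 16 did not pass the threshold of adjusted p 0.05 (limma on log2(TPM + 1), Benjamini-Hochberg over all genes tested). The genes called higher were Decr1, Bdh1, Hadha, Acsl3, Acadl, Acsl4, Acsl1, Hsd17b4, Eci1, Acadm and Acsl5, and those called lower were Acot1, Acot2, Acaa1a, Acaa1b and Hadhb. Bdh1 passed the filter through the SAFB libraries alone, so it could hardly have been tested without being higher there. As background, 29.8% of all genes tested were higher and 8.3% were lower, and among protein-coding genes the shares were 28.3% and 10.1%. The share of members called higher, 34.4%, was near that background, and the share called lower was 15.6%. Their median log2 fold change was 0.18, against 0.46 for all genes tested and 0.34 for protein-coding genes. With at least 1 TPM required in all 4 libraries, the medians were 0.14 for the remaining members and 0.30 for all remaining genes.

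Scaling changed the balance. After median centring 5 members were higher (Decr1, Bdh1, Hadha, Acsl3 and Acadl) and 11 were lower, against a background of 16.4% and 17.6% of all genes. The limit on Bdh1 holds here too, and it did not pass under quantile normalization (adjusted p = 0.11 by limma). The members' median was then −0.28. The SAFB values both exceeded the IgG values for 18 members and both fell short of them for 10, and the groups overlapped for the other 4. Over all genes tested, 52.3% lay above and 21.4% below. Together the members made up 0.366% and 0.344% of all TPM in the IgG libraries and 0.428% and 0.416% in the SAFB libraries. Protein-coding genes at large also took a larger share of the SAFB libraries. Those tested summed to 679488 and 677784.5 TPM in IgG RIP 1 and 2, and to 835942.5 and 835543.7 TPM in SAFB RIP 1 and 2. Decr1, Hadha, Acadl, Acsl3, Hadhb and Acot1 passed the threshold with the same direction in all 18 alternative analyses. Without SAFB RIP 1 there were 5 members higher and 3 lower, without SAFB RIP 2 there were 5 and 4, without IgG RIP 1 there were 15 and 7, and without IgG RIP 2 there were 12 and 7. In each of these fits 1 group is a single library that is assumed to vary like the other group, whose libraries alone supply the spread. IgG replicates were 2.23 times as far apart as SAFB replicates in the median gene. Calls were lost without a SAFB library also where the fold change hardly moved (Acsl1 at 0.83 and 0.84 without SAFB RIP 1 and 2, against 0.84 with all libraries). Without 1 or the other IgG library, calls were gained by Acads, Acadvl, Decr2, Echs1, Eci2, Ehhadh and Etfb. Acads also gained a call without SAFB RIP 2. For single members no p-value of a fit with 1 library left out is given.

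**Figure D1:**
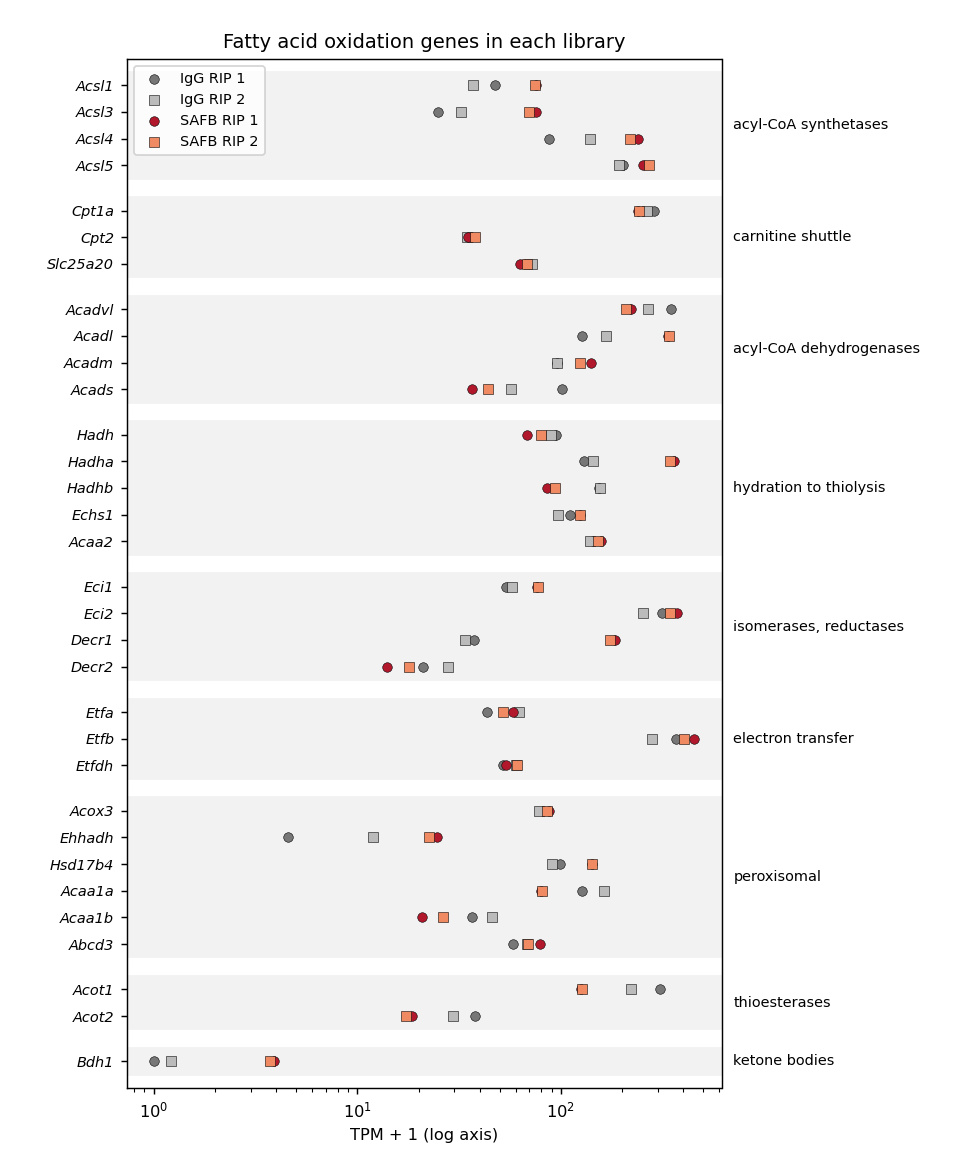
Level of each of the 32 fatty acid oxidation genes in the 4 libraries, as TPM + 1 on a log axis, grouped by role. Grey points are the IgG libraries and coloured points the SAFB libraries. Decr1, Hadha and Acadl lie well to the right in both SAFB libraries, and Hadhb, Acaa1a, Acot1 and Acot2 to the left.

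SAFB proteins are known to favour purine-rich RNA, so the coding sequences were searched for GAAGA on the sense strand only, with overlapping matches counted. To show what such sequence looks like in these genes, a 60-base stretch within 1 coding exon that holds the most matches is given for 5 members. These are Hadha and Hadhb, which moved in opposite directions, Acadl and Decr1, which rose, and Etfb. Etfb has the densest matches of all members and did not pass the test. Where several places tied, the first along the transcript was taken. Decr1 has 4 matches in its coding sequence and at most 1 in any such stretch. Capitals mark GAAGA. Each sequence is the transcript's sense strand, 5′ to 3′, from GENCODE M21 on GRCm38.
Hadha: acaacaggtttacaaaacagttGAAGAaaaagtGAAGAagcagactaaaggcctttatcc
Hadhb: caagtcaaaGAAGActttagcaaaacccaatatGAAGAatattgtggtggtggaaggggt
Acadl: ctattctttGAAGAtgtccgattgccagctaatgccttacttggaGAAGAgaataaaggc
Decr1: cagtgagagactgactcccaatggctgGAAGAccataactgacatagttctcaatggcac
Etfb: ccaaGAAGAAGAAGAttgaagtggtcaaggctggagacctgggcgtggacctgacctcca
The Hadha stretch is chr5:30134080-30134139 on the minus strand, in exon 9 of 20, and the Hadhb stretch is chr5:30166675-30166734 on the plus strand, in exon 4 of 16. The Acadl stretch is chr1:66843111-66843170 on the minus strand, in exon 7 of 11. For Decr1 it is chr4:15929777-15929836 on the minus strand, in exon 5 of 10, and for Etfb chr7:43457574-43457633 on the plus strand, in exon 6 of 6. Among 11926 protein-coding genes searched the same way, 91.5% had a stretch with at least 1 match, 51.0% one with at least 2 and 16.8% one with at least 3. Of all such stretches, 16.4% held at least 1 match, 2.60% at least 2 and 0.50% at least 3. The best stretches of Hadha and Hadhb, which moved apart, hold 2 matches each, and that of Decr1, with a higher fold change than Hadha, holds 1. Over the whole coding sequence the order differs, with 3.98 matches per kb in Decr1, 3.88 in Acadl, 3.50 in Hadha and 1.40 in Hadhb. Etfb has 10.5 per kb. The part of the motif in the fold changes was not tested. A match is a run of letters and not a measured binding site.

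The acyl-CoA synthetases, which activate fatty acids, were all higher in the SAFB libraries (4 of 4), and 1 of them after centring. Acsl3, found at the endoplasmic reticulum and on lipid droplets, stood at 24.0 and 31.1 TPM in IgG RIP 1 and 2 and at 74.4 and 68.3 TPM in SAFB RIP 1 and 2. The SAFB libraries were far above both IgG libraries, with a log2 fold change of 1.35 ± 0.18 (SE, n = 2 libraries per group; adjusted p = 0.0103 by limma). After centring it was 0.89 (adjusted p = 0.0197 by limma). Acsl4, which prefers arachidonic acid, had 86.2 and 138.5 TPM with IgG and 237.9 and 217.9 TPM with SAFB. Its groups did not overlap although the IgG libraries differed from each other, and the log2 fold change was 1.05 ± 0.25 (adjusted p = 0.0328 by limma; 0.59 and 0.0969 after centring).

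Acsl1, a main synthetase of liver and fat, measured 46.2 and 36.1 TPM in the IgG libraries and 74.1 and 73.2 TPM in the SAFB libraries. It was higher in both SAFB libraries by 0.84 ± 0.17 on the log2 scale (adjusted p = 0.0228 by limma), and by 0.38 after centring (adjusted p = 0.179). Acsl5, a synthetase of mitochondria and endoplasmic reticulum, was the most abundant of the 4, at 199.99 and 192.3 TPM with IgG and 253.2 and 268.4 TPM with SAFB. Its difference of 0.41 ± 0.09 passed the threshold (adjusted p = 0.0310 by limma), but its sign turned to −0.05 after centring (adjusted p = 0.740). Acsl1 and Acsl5 also lost their calls without SAFB RIP 1 and without SAFB RIP 2. The log2 fold changes were then 0.83 and 0.84 for Acsl1 and 0.45 and 0.37 for Acsl5. With the trend on transcript GC content removed, Acsl5 stood at 0.21 (adjusted p = 0.130).

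The carnitine shuttle had 0 of 3 genes called as deposited, against 2 of 3 lower after centring. Cpt1a, the outer membrane carnitine palmitoyltransferase and the controlled entry step, had 286.2 and 265.3 TPM with IgG and 238.7 and 240.5 TPM with SAFB. Both SAFB libraries were below both IgG libraries, by −0.20 ± 0.09 on the log2 scale (adjusted p = 0.160 by limma), and by −0.66 after centring (adjusted p = 0.0150). Removal of the GC trend left −0.055. Slc25a20, the carnitine-acylcarnitine translocase, ranged from 62.1 to 71.3 TPM over the 4 libraries with overlapping groups. Its log2 fold change was −0.08 ± 0.12 as deposited and −0.54 after centring (adjusted p = 0.644 and 0.0306 by limma), and 0.03 with the trend on transcript length removed. Cpt2, the inner membrane transferase, lay between 33.5 and 36.8 TPM with overlapping groups, at 0.04 ± 0.15 as deposited and −0.42 after centring (adjusted p = 0.856 and 0.110 by limma).

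Among the 4 acyl-CoA dehydrogenases, which take the first electrons, 2 were higher and 0 lower as deposited. Acadl, the long-chain enzyme, held 126.0 and 165.6 TPM in the IgG libraries and 335.6 and 337.0 TPM in the SAFB libraries. The SAFB libraries were nearly equal and far above either IgG library, and the log2 fold change was 1.21 ± 0.16 (adjusted p = 0.00960 by limma; 0.75 and 0.0176 after centring). Acadm, the medium-chain enzyme, had 94.4 and 95.2 TPM with IgG and 139.9 and 122.7 TPM with SAFB. It rose by 0.46 ± 0.12 (adjusted p = 0.0376 by limma), equal to the shift of the median gene, so that its centred value was 0.00 (adjusted p = 0.988). Acadm lost its call without SAFB RIP 1 and without SAFB RIP 2, at 0.37 and 0.56. Removing the GC trend left 0.30 (adjusted p = 0.0878 by limma).

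Acadvl, the very-long-chain enzyme at the inner membrane, pointed the other way from Acadl. It had 346.1 and 266.8 TPM with IgG and 219.3 and 208.9 TPM with SAFB. The groups did not overlap, but the IgG libraries were spread and the log2 fold change of −0.50 ± 0.15 did not pass (adjusted p = 0.0619 by limma). After centring it was −0.96 (adjusted p = 0.0170 by limma), and without IgG RIP 1 and without IgG RIP 2 it was −0.32 and −0.69. Removal of the GC trend left −0.089 (adjusted p = 0.609). Of its exonic bases 42.9% overlap Dvl2 on the opposite strand, and whether counting used strand is not given in the sources used here. The ratio of Acadl to Acadvl was 0.364 and 0.621 in the IgG libraries and 1.53 and 1.61 in the SAFB libraries. Acads, the short-chain enzyme, had 99.9 and 56.0 TPM with IgG and 35.7 and 43.0 TPM with SAFB, a log2 difference of −0.92 ± 0.31 (adjusted p = 0.0799 by limma; −1.38 and 0.0321 after centring). With 1 library left out, the log2 fold change of Acads was −0.51 without IgG RIP 1, −1.33 without IgG RIP 2, −0.79 without SAFB RIP 1 and −1.05 without SAFB RIP 2. These fits take their spread from 1 group alone, so their p-values are not given. Removal of the GC trend left −0.024 (adjusted p = 0.947), in a gene with 59.2% GC in its coding sequence.

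The mitochondrial trifunctional protein, which carries out the last 3 steps of the cycle on long chains, is made of an α subunit encoded by Hadha and a β subunit encoded by Hadhb. The RNAs of these partner subunits moved in opposite directions. Hadha had 128.8 and 143.1 TPM in the IgG libraries and 360.1 and 343.7 TPM in the SAFB libraries. The replicates were close and the SAFB values far above the IgG values, a 2.59-fold difference in means and a log2 fold change of 1.37 ± 0.10 (adjusted p = 0.00475 by limma; 0.91 and 0.00676 after centring). Hadhb had 153.2 and 154.8 TPM with IgG and 84.1 and 92.3 TPM with SAFB. Both SAFB libraries were below both IgG libraries, at 0.573 times the IgG mean, with a log2 fold change of −0.80 ± 0.11 (adjusted p = 0.00989 by limma; −1.26 and 0.00506 after centring).

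The Hadha to Hadhb ratio was 0.841 and 0.925 in the IgG libraries and 4.28 and 3.73 in the SAFB libraries. Such a plain ratio does not depend on the scaling of a library. The log2 change in the ratio was 2.17, computed with 1 TPM added to each value, which ties it in part to the scaling. The exact permutation test of 2 libraries against 2 gave the smallest two-sided p it allows, 0.333. The genes lie head to head on chromosome 5 of GRCm38, Hadha on the minus strand at chr5:30118304-30155162 and Hadhb on the plus strand at chr5:30155248-30184593. Only 85 bases separate their starts, so the stretch between them is shown from RefSeq's promoter sequence (GRCm38.p6, plus strand, chr5:30155163-30155247), with capitals marking GGGCGG, the letters of a GC box, searched on both strands.
Hadha to Hadhb: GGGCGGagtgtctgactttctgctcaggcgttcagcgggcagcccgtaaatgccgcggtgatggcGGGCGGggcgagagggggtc
It holds 2 matches. In the same stretch relative to the start, 22.5% of 32851 RefSeq promoter records hold at least 1 match and 7.92% hold as many. This stretch lies between the annotated genes and belongs to neither. Its part in the values of Hadha and Hadhb was not tested. Their coding sequences differ in GAAGA, with 8 matches in 2289 bases for Hadha (3.50 per kb) and 2 in 1425 bases for Hadhb (1.40 per kb), and in GC content, at 50.4% and 46.5%.

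The other 3 genes of these steps did not pass as deposited. Hadh, the short-chain hydroxyacyl-CoA dehydrogenase, had 93.2 and 88.3 TPM with IgG and 67.4 and 79.0 TPM with SAFB, below in both, at −0.31 ± 0.13 (adjusted p = 0.130 by limma; −0.77 and 0.0167 after centring). Acaa2, the mitochondrial 3-ketoacyl-CoA thiolase, had 142.0 and 137.4 TPM with IgG and 156.3 and 150.9 TPM with SAFB. Its groups were apart by little, and its log2 fold change of 0.14 ± 0.09 turned to −0.32 after centring (adjusted p = 0.311 and 0.0804 by limma). Echs1, the short-chain enoyl-CoA hydratase, stood between 95.7 and 123.6 TPM, with 0.27 ± 0.12 as deposited and −0.19 after centring (adjusted p = 0.139 and 0.316 by limma). Echs1 was 0.36 without IgG RIP 1 and 0.17 without IgG RIP 2, and Acaa2 passed after removal of the GC trend, at 0.45 (adjusted p = 0.0243 by limma).

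Auxiliary enzymes let unsaturated fatty acids enter the cycle. Decr1, the mitochondrial 2,4-dienoyl-CoA reductase, had the largest fold change of the 32 genes on the log2(TPM + 1) scale. Bdh1, near 0 with IgG, was larger with a pseudocount of 0.1 (4.03 against 2.36). Decr1 stood at 36.6 and 32.7 TPM in IgG RIP 1 and 2 and at 183.9 and 172.4 TPM in SAFB RIP 1 and 2. The replicates were close in both groups, and the SAFB mean was 5.14 times the IgG mean (log2 fold change 2.33 ± 0.12, adjusted p = 0.00378 by limma; 1.87 and 0.00452 after centring). Of all genes tested, 6.07% had a larger log2 fold change. Decr1 spans chr4:15917240-15945507 on the minus strand.

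Decr2, the peroxisomal reductase, had 20.1 and 27.0 TPM with IgG and 12.9 and 16.9 TPM with SAFB. Its libraries did not overlap either, in the opposite order, and the log2 fold change was −0.63 ± 0.27 (adjusted p = 0.140 by limma; −1.08 and 0.0347 after centring). Without IgG RIP 1 it was −0.83 and without IgG RIP 2 it was −0.42. The ratio of Decr1 to Decr2 was 1.82 and 1.21 in the IgG libraries and 14.2 and 10.2 in the SAFB libraries. Eci1, a mitochondrial enoyl-CoA isomerase, had 52.5 and 56.6 TPM with IgG and 75.3 and 76.4 TPM with SAFB. It rose by 0.47 ± 0.12 (adjusted p = 0.0392 by limma), which left 0.01 after centring (adjusted p = 0.957). The value became 0.89 after removal of the GC trend (adjusted p = 0.0107). Its call was lost without SAFB RIP 1 and without SAFB RIP 2, at 0.48 and 0.46. Eci2, an isomerase of peroxisomes and mitochondria with the second highest mean TPM over the 4 libraries, had 313.6 and 252.5 TPM with IgG and 370.7 and 342.0 TPM with SAFB. Both SAFB libraries were above, but 0.34 ± 0.14 did not pass and became −0.12 after centring (adjusted p = 0.124 and 0.598 by limma). It was 0.49 without IgG RIP 1 and 0.18 without IgG RIP 2.

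Electron transfer flavoprotein and its dehydrogenase had 0 of 3 genes called, as deposited and after centring. Etfb, the β subunit, was the most abundant member, with 366.7 and 280.6 TPM in the IgG libraries and 452.1 and 402.2 TPM in the SAFB libraries. The SAFB libraries were above, but the log2 fold change of 0.41 ± 0.16 did not pass and was −0.05 after centring (adjusted p = 0.116 and 0.854 by limma). It was 0.60 without IgG RIP 1 and 0.22 without IgG RIP 2, and 1.17 after removal of the GC trend (adjusted p = 0.00642 by limma). Of its exonic bases, 53.0% overlap Gm45233 on the same strand, so reads of these genes could be divided between them. Etfa, the α subunit, ranged from 42.4 to 61.5 TPM and Etfdh, which hands the electrons to ubiquinone, from 51.2 to 59.96 TPM, both with overlapping groups. Their log2 fold changes were 0.08 ± 0.22 and 0.03 ± 0.15 as deposited and −0.38 and −0.43 after centring. The ratio of Etfb to Etfa, 8.66 and 4.56 with IgG and 7.94 and 7.90 with SAFB, overlapped between groups, unlike that of Hadha to Hadhb.

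**Figure D2:**
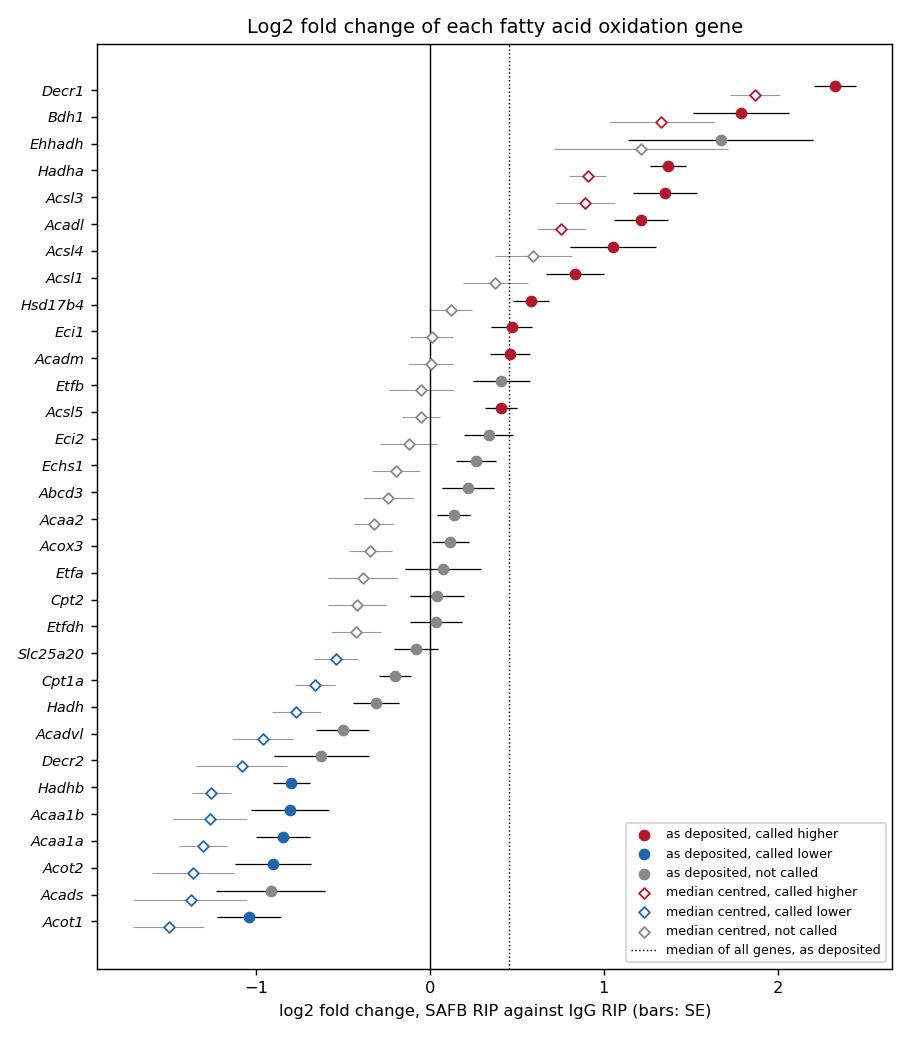
Log2 fold change (SAFB against IgG) of the 32 genes with standard errors from limma, as deposited and after median centring, ordered by the fold change as deposited. Decr1, Bdh1, Hadha, Acsl3 and Acadl stay above 0 by more than their errors on both scales, while genes near the median shift of 0.46, such as Acadm and Eci1, fall to about 0. Bdh1 passed the filter through the SAFB libraries alone, and the size of its value is set by the pseudocount.

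Of the 6 peroxisomal genes, 1 was higher and 2 were lower as deposited. The lower genes were the peroxisomal thiolases, which cleave the shortened chain. Acaa1a had 126.5 and 162.3 TPM with IgG and 79.0 and 79.4 TPM with SAFB. Both SAFB libraries were lower, at 0.548 times the IgG mean (log2 fold change −0.85 ± 0.15, adjusted p = 0.0185 by limma; −1.31 after centring). Acaa1b had 35.6 and 45.0 TPM with IgG and 19.9 and 25.3 TPM with SAFB. It was lower by a similar amount, −0.81 ± 0.22 (adjusted p = 0.0485 by limma; −1.27 after centring). These genes share 96.5% of 1272 coding bases, with an identical run of 327 bases, so their reads could be exchanged between them and they are not independent measurements. Their ratio was 3.56 and 3.61 with IgG and 3.97 and 3.14 with SAFB. Both are GC-rich, at 60.5% and 60.1% of coding bases, and with the trend on GC content removed both changed sign, to 0.03 and 0.06 (adjusted p = 0.913 and 0.867 by limma). Acaa1b also lost its call without SAFB RIP 1 and without SAFB RIP 2, at −0.64 and −0.97.

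Hsd17b4, the peroxisomal D-bifunctional protein, was the gene called higher, with 97.7 and 89.7 TPM in the IgG libraries and 140.5 and 140.4 TPM in the SAFB libraries. The SAFB libraries were nearly equal to each other and above both IgG libraries, at 0.58 ± 0.10 (adjusted p = 0.0181 by limma). After centring it was 0.12 (adjusted p = 0.488). Its call was lost without SAFB RIP 1 and without SAFB RIP 2, at 0.58 and 0.58. Ehhadh, the L-bifunctional protein and a well-known PPARα target, had 3.55 and 11.0 TPM with IgG and 23.7 and 21.4 TPM with SAFB. The SAFB libraries were above both IgG libraries, but the IgG libraries differed widely from each other, and 1.67 ± 0.53 did not pass (adjusted p = 0.0680 by limma; 1.21 and 0.120 after centring). Against 1 IgG library at a time the log2 fold change was 0.98 without IgG RIP 1 and 2.37 without IgG RIP 2, fits in which the spread between the IgG libraries no longer enters, so their p-values are not given. Acox3, an oxidase of branched chains, was 0.12 ± 0.11 higher and Abcd3, a transporter of the peroxisomal membrane, 0.22 ± 0.15 higher without passing, and both turned negative after centring (−0.34 and −0.24). Acox3 passed once the GC trend had been removed, at 0.40 (adjusted p = 0.0405).

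The acyl-CoA thioesterases, which release free fatty acid from coenzyme A, were both lower. Acot1, the cytosolic enzyme, had 306.2 and 218.9 TPM with IgG and 124.0 and 126.3 TPM with SAFB. The SAFB libraries were close together and well below both IgG libraries, at 0.477 times the IgG mean (log2 fold change −1.04 ± 0.18, adjusted p = 0.0173 by limma; −1.50 and 0.00889 after centring). Removal of the GC trend left −0.67 (adjusted p = 0.0287). Acot2, its mitochondrial neighbour, had 36.9 and 28.7 TPM with IgG and 17.5 and 16.4 TPM with SAFB. It was lower by −0.90 ± 0.22 (adjusted p = 0.0348 by limma), and by −1.36 after centring. The pair lies side by side on chromosome 12 and shares 95.6% of 1236 aligned coding bases, with an identical run of 273 bases, so these values are not independent either. The ratio of Acot1 to Acot2 was 8.31 and 7.64 with IgG and 7.10 and 7.72 with SAFB. Acot2 lost its call without SAFB RIP 1 and without SAFB RIP 2, at −0.95 and −0.86. Removing the GC trend brought it to −0.49 on the log2 scale (adjusted p = 0.113 by limma).

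Bdh1, the mitochondrial enzyme that interconverts acetoacetate and 3-hydroxybutyrate, was the only ketone body gene of the set and had the lowest level. It was listed at 0 in IgG RIP 1 and at 0.217 TPM in IgG RIP 2, and had 2.88 and 2.74 TPM in the SAFB libraries. No fold is given against a library listed at 0. On the log2(TPM + 1) scale the difference was 1.79 ± 0.28 (adjusted p = 0.0134 by limma; 1.33 and 0.0290 after centring). Its size is set by the pseudocount, at 4.03 with 0.1 and 0.61 with 5, and it did not pass under quantile normalization (0.74, adjusted p = 0.110). It passed the filter through the SAFB libraries alone, so it could hardly have been tested without being higher there, and it could not be tested when either SAFB library was left out.

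**Figure D3:**
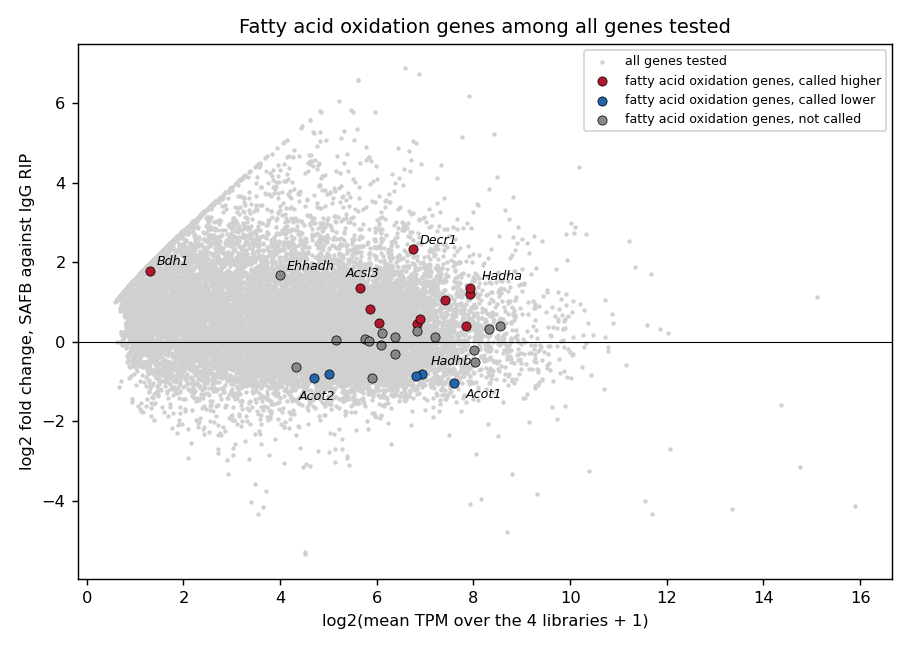
Log2 fold change (SAFB against IgG) against mean level, log2(mean TPM + 1), for the 16647 genes tested (light points) and the 32 fatty acid oxidation genes (red higher, blue lower, grey not called). The members lie within the cloud of other genes, most of them at high levels, and the diagonal upper edge at the left is made by genes near 0 with IgG.

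The members called higher and lower also differed in sequence and length, and so did protein-coding genes at large. Members called higher had a median coding GC content of 49.8%, a median of 3.88 GAAGA matches per kb of coding sequence and a median gene span of 36859 bases. For the 5 called lower these medians were 60.5%, 1.40 and 9071 bases, but 4 of the 5 are the near-identical pairs Acaa1a and Acaa1b and Acot1 and Acot2. Over the protein-coding genes with a coding sequence, the 3376 called higher had medians of 48.8% GC, 4.35 GAAGA per kb and a span of 33945 bases, and the 1212 called lower had 57.6%, 2.03 and 12524 bases. The part of these features in the members' values was not tested beyond the removal of the GC and length trends.

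Across the 32 members, Spearman's correlation with the log2 fold change was 0.55 for GAAGA density, −0.51 for coding GC content and 0.56 for gene span. Across 11928 protein-coding genes the same values were 0.36, −0.50 and 0.23. For TCTTC, the reverse complement of GAAGA, they were −0.20 and −0.06. These are descriptions across genes that share the same 4 libraries, and GAAGA density and GC content are themselves related (−0.28 in the members and −0.37 in the protein-coding genes). Single members went against the pattern: Etfb and Hadh had the densest GAAGA, 10.5 and 9.55 per kb, and did not pass, and Eci1 was called higher with 1.15. Hadhb was lower with a GC content of 46.5%, far below the other genes called lower, which lay between 60.1% and 62.2%.

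**Figure D4:**
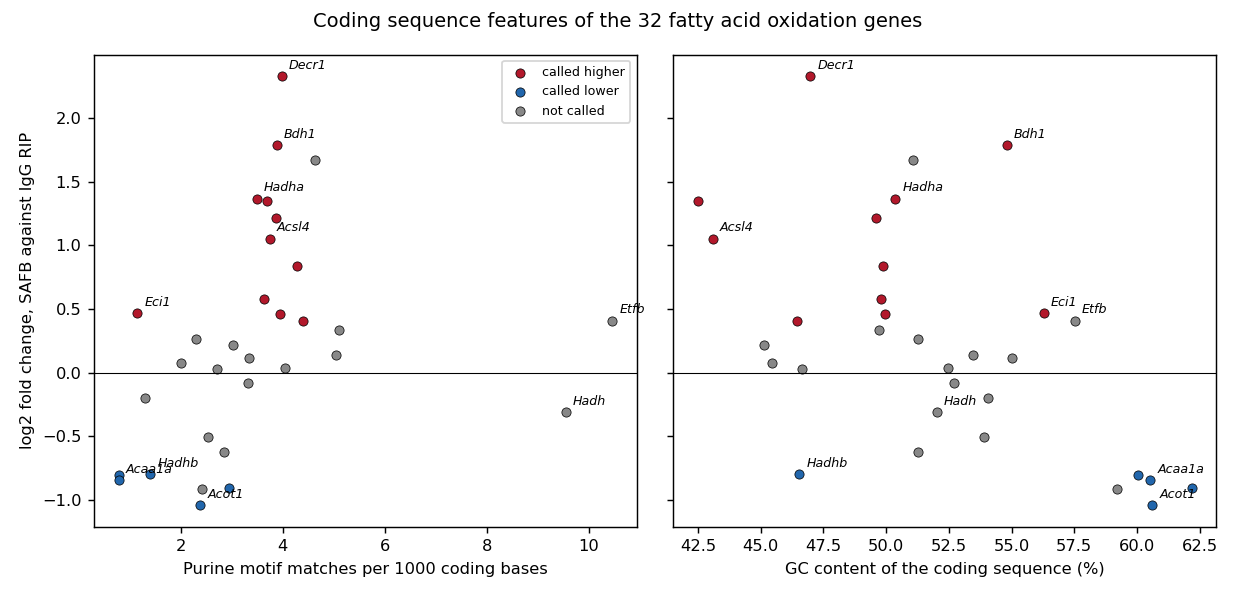
Log2 fold change (SAFB against IgG) of the 32 genes against the density of the purine motif in their coding sequence (left) and against the GC content of the coding sequence (right), each point 1 gene. Genes called lower gather at few motifs and high GC content, 4 of the 5 being 2 near-identical pairs, with Hadhb an exception in GC content and Etfb and Hadh apart at high motif density.

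Other genes of the pathway are given against the same background, 29.8% of all genes higher and 8.3% lower as deposited and 16.4% and 17.6% after centring. Of 46 further oxidation and ketone enzymes 40 were tested, with 11 higher and 6 lower as deposited (5 and 10 after centring) and a median log2 fold change of 0.32. Acat1, the mitochondrial acetoacetyl-CoA thiolase, went from 72.8 and 68.5 TPM with IgG to 244.4 and 205.7 TPM with SAFB (1.65 ± 0.13, adjusted p = 0.00488 by limma). Crot, the peroxisomal carnitine octanoyltransferase, rose by 1.24 ± 0.13. In the other direction, Ech1, a dienoyl-CoA isomerase, changed by −0.55 ± 0.11 and Cpt1c, the brain-type carnitine palmitoyltransferase, by −1.26 ± 0.21, both called lower.

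Of 12 genes tested for fatty acid uptake and binding, 3 were higher and 1 lower (1 and 3 after centring). Dbi, the acyl-CoA-binding protein, was higher by 0.80 ± 0.11 as deposited, but not called after centring (0.34, adjusted p = 0.0994 by limma). Slc27a1, a fatty acid transport protein, was lower at −1.03 ± 0.14 (−1.49 after centring). Among 21 regulators of fatty acid oxidation, 6 were higher and 2 lower (2 and 5 after centring). The corepressor Ncor1 rose by 1.31 ± 0.16 and the coactivator Ncoa1 by 1.76 ± 0.21. Rxra, which pairs with PPARα on DNA, was lower at −0.99 ± 0.22, with 55.2 and 40.7 TPM with IgG and 21.8 and 24.9 TPM with SAFB. Of 17 peroxisome biogenesis genes 1 was higher and 5 were lower (0 and 8 after centring). These included Pex16 at −1.53 ± 0.20 and Pex5, the receptor that imports most peroxisomal enzymes, at −0.99 ± 0.18.

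For comparison, 2 pathways that do not oxidise fatty acids had fewer genes higher. Cholesterol and fatty acid synthesis had 2 of 36 higher and 12 lower, with a median log2 fold change of −0.16 (2, 18 and −0.62 after centring). Glycolytic enzymes had 1 of 19 higher and 7 lower, with a median of −0.39 (0, 12 and −0.85 after centring). The fatty acid oxidation genes, with 11 of 32 higher and a median of 0.18, stood nearer to all genes tested (0.46) than these lists did, and the difference between the lists was not tested.

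**Figure D5:**
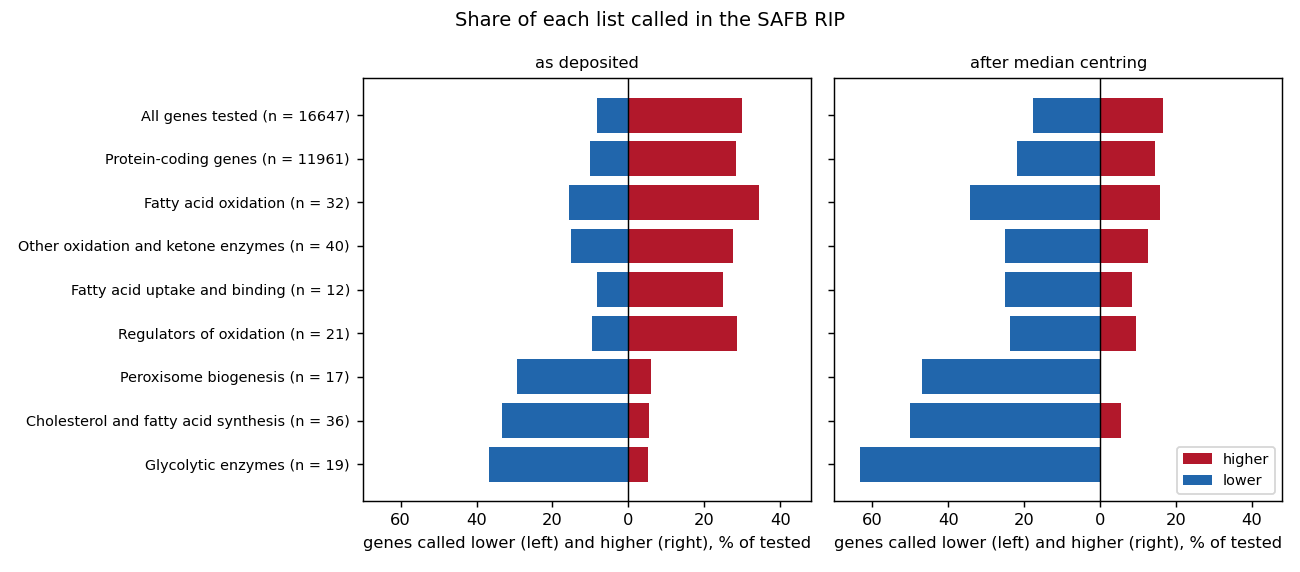
Percent of the tested genes of each list called lower (left of 0) and higher (right of 0), as deposited and after median centring. Fatty acid oxidation genes have 34.4% higher and 15.6% lower as deposited. The glycolytic and the cholesterol and fatty acid synthesis lists lie mostly to the left in both panels.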

How the data were processed

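RIP-seq libraries of AML12 nuclei, 2 with control IgG and 2 with a SAFB antibody, were compared. The authors deposited 1 table of TPM values. Per the submitters' processing notes, the build was mm10 and the tools included StringTie, HISAT2, HTSeq and DESeq2, with no version or task given. Which of them made the TPM values, with which annotation and with what strand setting, is not given in the sources used here. A TPM value is a share, so an RNA that fills much of a library lowers all others, and it keeps no depth.

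Of 52197 entries, 14 shared 6 identifiers and were summed, which left 52189 genes. GENCODE M21 held 52042 of them and gave coordinates and transcript sequences, taking for each gene the coding transcript with the longest coding sequence. RefSeq promoter records were matched by symbol for 29 of the 32 members. The 16647 genes that reached 1 TPM in 2 or more of the 4 libraries were fitted as log2(TPM + 1), which understates folds of low genes, with limma 3.58.1 in R 4.3.3. Variances were moderated along a trend with mean level, with 2 residual degrees of freedom and a prior of 2.50. P-values were adjusted by Benjamini-Hochberg over all genes tested, with a threshold of 0.05. An exact permutation test of 2 against 2 cannot go below a two-sided p of 0.333. The procedure was also run on simulated data with the same spread in both groups. The real IgG replicates were further apart than the SAFB replicates, so that run does not bear on calls under unequal spread.

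The members and lists were chosen with earlier results of these data known. All members may be named, with all 4 values for those past the threshold and the 12 with the highest mean TPM. Outside that rule, Acads, Hadh, Decr2 and Ehhadh are also given with all 4 values, and the absent markers Apoa2 and Asgr1 are named. Of each pathway list, up to 4 genes with the highest mean TPM and the 2 with the largest called change in each direction may be named, and of each marker list the 4 with the highest mean TPM. In all, 18 alternatives covered the pseudocount, the filter, scaling, the variance model, each library left out, a replicate block and, chosen after seeing the data, removal of GC and length trends.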

Additional observations from a re-analysis of the deposited data

How the results depend on the processing

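With the pseudocount, filter or robust variance changed, the counts of members and of all genes called stayed within 1.5 times of those reported. Without the variance trend 6 members were higher. Median centring gave 2736 genes higher and 2935 lower, 5 and 11 members, and a member median of −0.28. Quantile normalization gave 2758 and 2986 genes, 4 and 10 members, and −0.13, and rescaling to protein-coding genes 2600 and 2322, 6 and 10, and −0.12. Removing the GC trend left 623 genes and 2 members lower. Leaving out 1 library gave 2034 to 7781 genes higher and 571 to 2631 lower, 5 to 15 members higher and 3 to 7 lower, and medians from 0.12 to 0.18. Each of these fits takes its spread from the group with both libraries. Bdh1 fell under the filter without SAFB RIP 1 or 2 and under the stricter filters. With a replicate block 4797 genes were higher and 1264 lower, and 9 and 6 members: Acsl5, Acadm, Eci1 and Acot2 lost their calls and Acadvl, Acads and Ehhadh gained one (adjusted p = 0.0379, 0.0421 and 0.0375 by limma). The deviations of same-numbered libraries correlated at r = −0.02 and the labels do not say that a number marks a shared lysate, so the numbers were not taken as pairs. Centring with the replicate block gave 2480 and 2670 genes, 4 and 10 members, and −0.28. In all, 45 member values changed sign. Under centring, with or without the block, these were Acsl5 (−0.051), Cpt2 (−0.42), Echs1 (−0.19), Acaa2 (−0.32), Eci2 (−0.12), Etfa (−0.38), Etfb (−0.050), Etfdh (−0.43), Acox3 (−0.34) and Abcd3 (−0.24). Under quantile normalization and protein-coding rescaling they were Cpt2 (−0.30, −0.25), Echs1 (−0.052, −0.033), Acaa2 (−0.17, −0.16), Etfa (−0.24, −0.22), Etfdh (−0.27, −0.26), Acox3 (−0.20, −0.18) and Abcd3 (−0.080, −0.076). With the GC trend removed they were Etfa (−0.22), Etfdh (−0.19), Acaa1a (0.033), Acaa1b (0.059) and Abcd3 (−0.084), and with the length trend removed Slc25a20 (0.033). With 1 library left out, Etfa ranged from −0.19 to 0.34, Etfdh from −0.0705 to 0.13 and Cpt2 from −0.015 to 0.10. The cause of these changes was not tested. TPM keeps no depth, so what depth limits is unknown.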
